A study of Mus musculus with 24 samples.

Results

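Liver mRNA of 10 enzymes of ceramide and sphingolipid metabolism was measured in mice that lack lipin 1 in adipocytes and in their WT littermates. The members were taken by gene symbol from the 41388 genes in each table: Sptlc1, Sptlc2, Cers2, Cers5, Cers6, Degs1, Sgms1, Ugcg, Acer2 and Sphk2. All 10 were found and all 10 passed the filter on low counts. They are the named enzymes within a wider list of 69 sphingolipid genes, whose other 59 genes are described after them. Acer2, a ceramidase that releases sphingosine from ceramide, was 1.84-fold higher in Adn-Lpin1-/- than in WT liver on a low-fat diet and 1.81-fold higher on a high-fat diet. On the high-fat diet Cers5 was also higher (1.76-fold), and Ugcg and Degs1 fell by 30.8% and 12.4%. The other 6 enzymes did not pass the test for genotype on either diet.

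The study asked how loss of lipin 1 from fat cells affects metabolism in other organs, here the liver. Adn-Lpin1-/- mice carried 2 floxed Lpin1 alleles and a Cre transgene driven by the adiponectin promoter, which is active in adipocytes, so the gene was to be deleted in fat and not in the liver cells sampled here. WT mice were floxed littermates without Cre, and all were males on the C57BL/6J background. Diets with 10% (LFD) or 60% (HFD) of energy as fat were started at 8 weeks of age and livers were taken after a 4 h fast, with the time on diet given as 16 weeks in the sample labels and as 5 weeks in the methods. The 4 groups, WT LFD, Adn-Lpin1-/- LFD, WT HFD and Adn-Lpin1-/- HFD, held 5 single-mouse libraries each, and 1 pooled library per group was kept out of the tests.

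Total counts ran from 36260187 to 81072794 per mouse and were lowest in WT LFD (36260187 to 45999456). Hepatocyte transcripts were abundant in every library, with Alb between 55514 and 87678 CPM, the counts of a gene scaled to an equal library total. Liver Lpin1 spread from 119.7 to 1194.5 CPM over the 20 mice and did not pass the test for genotype (edgeR adjusted p = 0.314 on the LFD and 0.734 on the HFD). Markers of other liver cells moved with genotype. In Adn-Lpin1-/- liver 5 of 8 stellate cell and fibroblast markers were higher under LFD feeding and 4 of 8 under HFD feeding (Col1a1 log2 fold change 2.85 and 2.27). Of this list Lrat, Des and Reln did not pass on either diet (adjusted p = 0.0851 to 0.945), nor Dcn on the HFD (adjusted p = 0.502). Of 6 sinusoidal endothelial markers 3 and 4 were higher on these diets (Stab2 0.15, adjusted p = 0.405, and 0.46, adjusted p = 0.0102). Of 6 macrophage markers 5 were higher on the HFD (Clec4f 0.63, but not Adgre1, 0.66, adjusted p = 0.158), and on the LFD their adjusted p ran from 0.0539 to 0.695. Of 6 hepatocyte markers 4 were lower on the HFD (Alb -0.34, Apoa1 -0.77). The summed macrophage list spanned 126.9 to 158.7 CPM in WT HFD and 158.2 to 347.8 in Adn-Lpin1-/- HFD, and the stellate list spanned 90.0 to 177.1 in WT LFD and 190.8 to 459.3 in Adn-Lpin1-/- LFD. On the other diet of each list the genotypes overlapped. The macrophage list spanned 104.3 to 192.7 CPM in WT LFD and 132.4 to 257.8 in Adn-Lpin1-/- LFD. The stellate list spanned 156.3 to 234.7 CPM in WT HFD and 191.2 to 473.1 in Adn-Lpin1-/- HFD. The 4 cholangiocyte markers had adjusted p of 0.0501 to 0.952, and Cd79a, the only one of 6 lymphocyte markers above the filter, 0.631 and 0.661. The adipocyte markers Adipoq and Plin1 had no read in 2 and 16 of the 20 mice and at most 4.32 and 0.112 CPM, whereas Cfd, the only tested marker of that list, was higher in Adn-Lpin1-/- liver (3.76 and 3.81). The part of these cell populations in the differences given next was not tested, and in whole liver fewer cells of a type and less RNA per cell cannot be told apart.

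Ceramide is the hub of sphingolipid metabolism. Serine palmitoyltransferase joins serine to palmitoyl-CoA in the first step, ceramide synthases attach a fatty acyl chain whose length each isoform selects, and a desaturase turns the dihydroceramide into ceramide. Ceramide is then built into sphingomyelin or glucosylceramide, or is cut by ceramidases to sphingosine, which sphingosine kinases phosphorylate to the signalling lipid sphingosine 1-phosphate. In liver, ceramides and their acyl chain length are known to be tied to insulin action and fat storage.

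The 10 mRNAs covered a wide range of abundance. On a scale that divides CPM by exon length (RPKM), Cers2, the synthase of very-long-chain ceramides and the main isoform of liver, was the most abundant at 101.5 ± 1.00 RPKM in WT LFD (SD, n = 5). Degs1, the dihydroceramide desaturase, followed at 20.4 ± 1.22 RPKM, Sphk2, the mainly nuclear and mitochondrial sphingosine kinase, at 14.6 ± 1.31, and Sptlc1, the common subunit of serine palmitoyltransferase, at 8.67 ± 0.474. Next came Ugcg, the glucosylceramide synthase, at 4.04 ± 0.517 RPKM. Up to this point no mouse of one gene overlapped the next gene in WT LFD. Sptlc2, the catalytic partner of Sptlc1, had 2.03 ± 0.126 RPKM, Cers6 1.66 ± 0.595, Acer2 1.05 ± 0.164, and Sgms1, the Golgi sphingomyelin synthase, 1.00 ± 0.0881. These 4 followed one another with overlapping ranges. Cers5, a synthase of long-chain ceramides, was lowest in all 4 groups, at 0.407 ± 0.0824 RPKM in WT LFD, and its 39 to 207 reads per mouse make it the least precisely counted member.

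**Figure D1:**
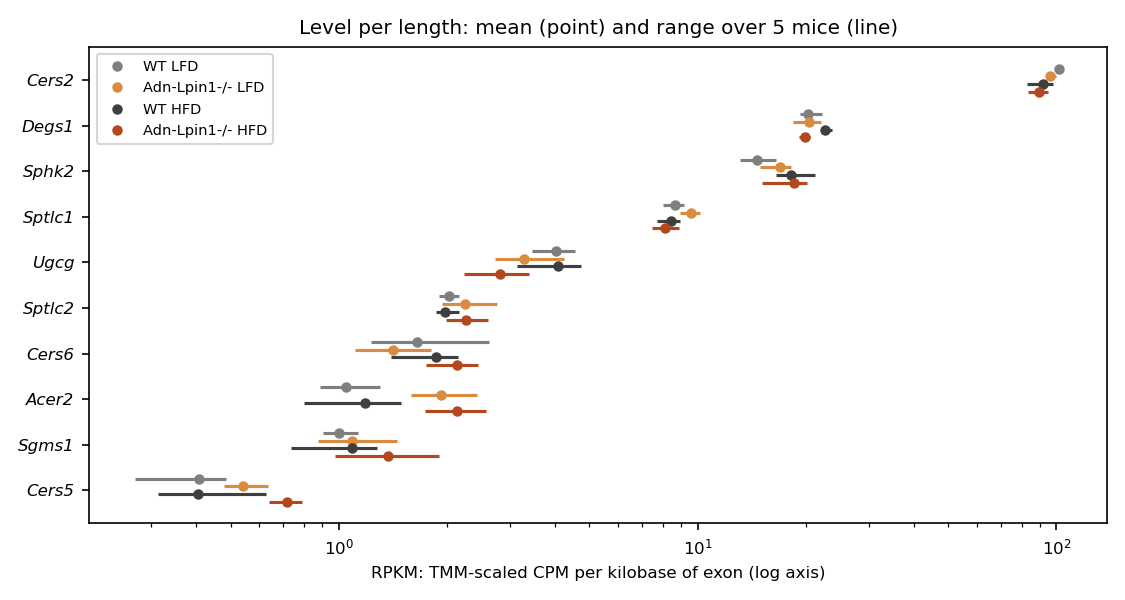
Level of each member per length (horizontal log axis, RPKM) in the 4 groups, as the mean (point) and the range over 5 mice (line). Cers2 lies between 82.8 and 102.9 RPKM and Cers5 between 0.271 and 0.789, and the Acer2 lines of the Adn-Lpin1-/- groups lie to the right of those of the WT groups.

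In Adn-Lpin1-/- liver the lower part of the order differed. Acer2, at rank 8 of 10 in both WT groups, was at rank 7 in both Adn-Lpin1-/- groups, with 1.93 ± 0.357 RPKM on the LFD and 2.14 ± 0.333 on the HFD. It exchanged places with Cers6, whose range it overlapped in all 4 groups and whose mean in Adn-Lpin1-/- HFD was also 2.14 RPKM. Its range overlapped that of Sptlc2 in the Adn-Lpin1-/- groups (2.26 ± 0.260 RPKM in Adn-Lpin1-/- HFD) and not in the WT groups. Ugcg, separate from Sptlc2 in both WT groups, overlapped it in both Adn-Lpin1-/- groups.

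Genotype was compared within each diet. On the LFD 1 of 10 members was called at an adjusted p of 0.05 (edgeR quasi-likelihood test, Benjamini-Hochberg over 13052 genes), against 14.4% of all genes tested. That 1 gene was higher, as were 6.27% of all genes, while 8.11% were lower. On the HFD 4 of 10 members were called against 18.6% of all genes. Of these 2 were higher (9.87% of all genes) and 2 lower (8.78%). The median log2 fold change of the members was 0.13 on the LFD and 0.11 on the HFD, beside 0.01 and 0.00 for all genes. The values of the 5 mice did not overlap between the genotypes for 2 members on the LFD (Cers2 and Acer2) and 3 on the HFD (Cers5, Degs1 and Acer2), where 10.1% and 11.4% of all genes were without overlap. The separation of Cers2 on the LFD was lost when the mice were scaled together with the pooled libraries. With 10 members, 1 gene is 10.0% of the set, so only the single genes are described further.

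**Figure D2:**
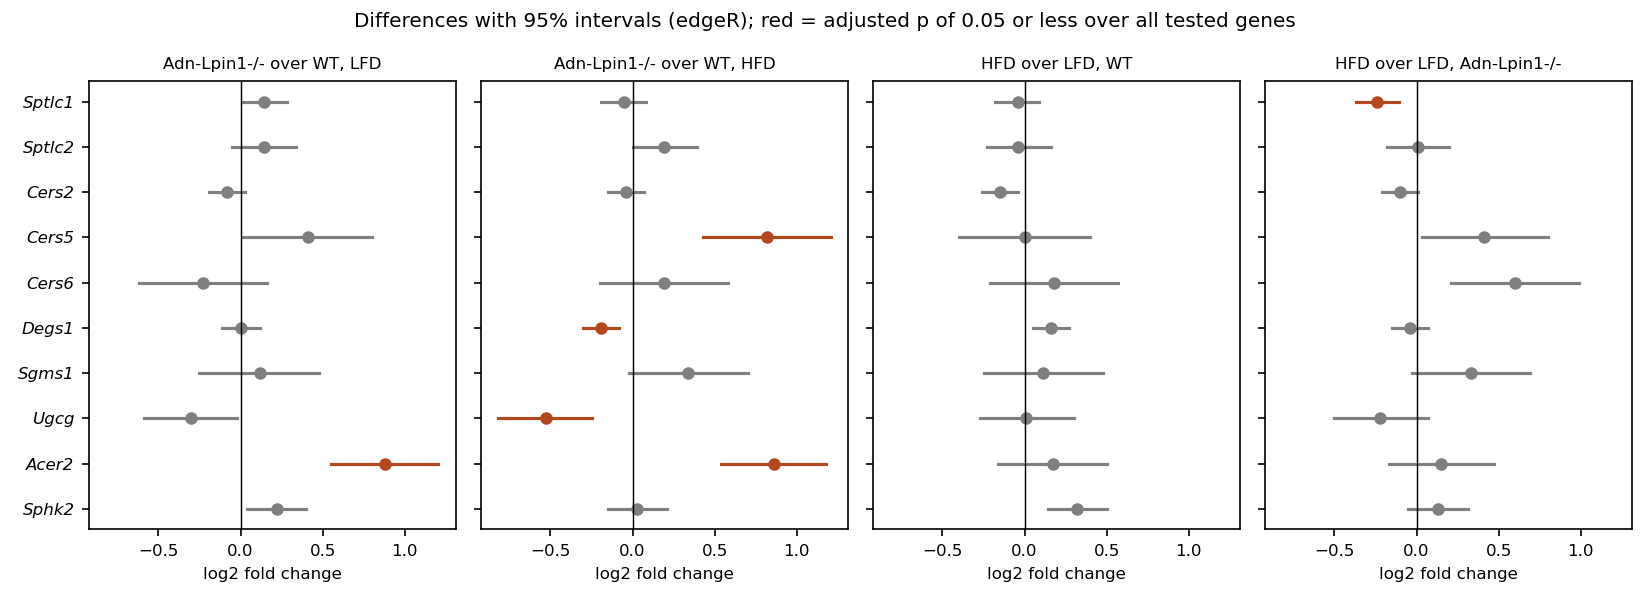
Log2 fold change of each member (point) with its 95% confidence interval (line) for genotype on each diet and for diet in each genotype, in red where the adjusted p over all tested genes was 0.05 or less. Acer2 lies at 0.88 and 0.86 in the genotype panels, Cers5, Ugcg and Degs1 are red on the HFD only, and Sptlc1 alone is red for diet, in Adn-Lpin1-/- mice.

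Acer2 encodes an alkaline ceramidase of the Golgi. In mice 1 to 5 of WT LFD it had 6.36, 7.62, 6.61, 7.56 and 9.34 CPM, and in Adn-Lpin1-/- LFD 11.9, 15.4, 11.4, 12.8 and 17.4. On the HFD WT mice had 9.06, 8.04, 8.75, 10.7 and 5.73 CPM and Adn-Lpin1-/- mice 18.4, 16.3, 16.0, 13.5 and 12.4. Neither diet showed any overlap, and the lowest of the 10 Adn-Lpin1-/- mice exceeded the highest of the 10 WT mice. The log2 fold change was 0.88 ± 0.16 (SE) on the LFD (adjusted p = 0.00113) against 0.86 ± 0.15 on the HFD (adjusted p = 0.00109), and the exact permutation p of each comparison was 0.00794, the smallest that 5 mice against 5 allow. Acer2 was called on either diet in all 31 alternatives, which were 11 other ways of processing and the omission of each of the 20 mice. Its genotype effect on the HFD minus that on the LFD was -0.02 on the log2 scale (95% interval -0.48 to 0.44, adjusted p = 0.996). Diet itself moved it by 0.17 in WT (adjusted p = 0.645) and 0.15 in Adn-Lpin1-/- mice (adjusted p = 0.679).

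The ceramide synthases did not move as a group. Cers5, which prefers palmitoyl-CoA, had 1.72, 1.57, 1.55, 1.41 and 0.961 CPM in WT LFD and 1.78, 2.01, 1.83, 1.69 and 2.25 in Adn-Lpin1-/- LFD. On the HFD WT mice had 1.55, 1.11, 1.16, 1.15 and 2.23 CPM and Adn-Lpin1-/- mice 2.46, 2.64, 2.26, 2.80 and 2.57. The 5 Adn-Lpin1-/- HFD mice were the 5 highest of all 20, though WT HFD mouse 5 (2.23 CPM) came close to the lowest of them (2.26). The log2 fold change on the HFD was 0.82 ± 0.19 (adjusted p = 0.00587) and was called in all 31 alternatives. On the LFD it was 0.41 ± 0.19 and was not called (adjusted p = 0.164), and the difference between the diets was not called either (0.41, 95% interval -0.14 to 0.97, adjusted p = 0.802). An antisense gene, Gm17058, overlaps Cers5 and held 0 to 32 reads per mouse in these libraries, whose preparation is not described as keeping strand.

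Cers2 had 369.0 to 378.1 CPM in WT LFD and 347.2 to 367.9 in Adn-Lpin1-/- LFD. All 5 Adn-Lpin1-/- mice were thus below all WT mice, but the log2 fold change was only -0.08 ± 0.05 and was not called (adjusted p = 0.317). The gap was narrow and depended on the scaling. Scaled together with the pooled libraries, the same mice spanned 370.4 to 379.8 CPM in WT and 346.1 to 371.8 in Adn-Lpin1-/- and overlapped. On the HFD the ranges were 304.3 to 360.3 and 307.3 to 349.2 CPM and overlapped throughout (log2 fold change -0.04, adjusted p = 0.636). Cers6, a further synthase of long-chain ceramides, was spread widely between mice. Its WT LFD mice had 11.1, 10.9, 11.9, 23.3 and 16.4 CPM, and those of Adn-Lpin1-/- LFD 10.7, 16.0, 9.87, 14.4 and 11.7. The log2 fold change for genotype was -0.23 ± 0.19 on the LFD (adjusted p = 0.444) against 0.19 ± 0.19 on the HFD (adjusted p = 0.499). Without WT LFD mouse 4, which had 23.3 CPM, the LFD value was -0.01 (adjusted p = 0.987). Of the wider list, the ceramide synthase gene Cers4 was at 0.23 on the LFD (adjusted p = 0.313) against 0.41 on the HFD (adjusted p = 0.0515), and Cers1 and Cers3 were below the filter.

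Degs1 encodes the desaturase of the last step of ceramide synthesis. WT HFD mice had 58.8, 58.5, 57.8, 58.0 and 61.3 CPM and Adn-Lpin1-/- HFD mice 50.6, 51.9, 52.1, 53.4 and 49.8. The groups were apart, with the WT mice above, and the log2 fold change was -0.19 ± 0.05 (adjusted p = 0.0183). It was called in 30 of 31 alternatives, the exception being the test without a filter on low counts (adjusted p = 0.0579). On the LFD the WT range of 50.1 to 57.6 CPM and the Adn-Lpin1-/- range of 47.8 to 57.1 overlapped, and the log2 fold change was 0.00 ± 0.05 (adjusted p = 0.968). The 5 WT HFD mice were the 5 highest of all 20 mice. They enter both the genotype comparison on the HFD and the diet comparison in WT mice (0.16 ± 0.05, adjusted p = 0.156), so these are not independent.

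Ugcg makes glucosylceramide, the entry to glycosphingolipids. WT HFD mice had 22.4, 24.7, 21.3, 16.4 and 21.5 CPM and Adn-Lpin1-/- HFD mice 13.8, 11.7, 13.5, 17.6 and 16.8. The groups overlapped through WT mouse 4, which was below 2 of the Adn-Lpin1-/- mice, while the other 4 WT mice were above all of them. The log2 fold change was -0.53 ± 0.14 (adjusted p = 0.0117, exact permutation p = 0.0238) and was called in all 31 alternatives. On the LFD WT mice had 23.8, 23.8, 18.05, 20.9 and 18.8 CPM and Adn-Lpin1-/- mice 15.2, 22.1, 18.8, 15.2 and 14.2. That difference of -0.30 ± 0.14 on the log2 scale had the same sign and was not called (adjusted p = 0.150), and the difference between the diets was -0.23 (95% interval -0.63 to 0.17). Sgms1, which competes for the same ceramide to make sphingomyelin, ranged from 9.29 to 11.6 CPM in WT LFD and from 9.04 to 15.0 in Adn-Lpin1-/- LFD, and from 7.60 to 13.2 and 10.0 to 19.6 on the HFD. Its log2 fold changes of 0.12 ± 0.18 and 0.34 ± 0.17 were not called (adjusted p = 0.696 and 0.180), and the HFD value was 0.19 without Adn-Lpin1-/- mouse 3, which had 19.6 CPM, and 0.21 without WT mouse 5.

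The serine palmitoyltransferase subunits Sptlc1 and Sptlc2 differed from WT by 0.19 or less on the log2 scale on either diet. Neither was called for genotype. Sptlc1 had 20.8 to 23.9 CPM in WT LFD, 23.3 to 26.4 in Adn-Lpin1-/- LFD, 20.1 to 23.3 in WT HFD and 19.5 to 23.1 in Adn-Lpin1-/- HFD. Its genotype difference was 0.14 ± 0.06 on the LFD (adjusted p = 0.141) against -0.05 ± 0.06 on the HFD (adjusted p = 0.590). Sptlc2 had 15.4 to 17.6, 15.8 to 22.5, 15.2 to 17.5 and 16.2 to 21.2 CPM in the same order of groups, with differences of 0.14 ± 0.09 (adjusted p = 0.324) and 0.19 ± 0.09 (adjusted p = 0.151), the first of which was 0.06 without Adn-Lpin1-/- LFD mouse 5. In both Adn-Lpin1-/- groups the spread of Sptlc2 between mice was wider than in WT (SD 2.77 against 1.02 CPM on the LFD, and 2.11 against 0.928 on the HFD). Sptlc3, a first-step gene of the wider list, was below the filter and not tested. It had 2 to 68 reads per mouse in Adn-Lpin1-/- HFD (mean 0.509 CPM) and at most 2 reads in any mouse of the other groups. Sphk2 had 54.5 to 68.8 CPM in WT LFD and 62.1 to 75.9 in Adn-Lpin1-/- LFD, a difference of 0.22 ± 0.09 (adjusted p = 0.0968). On the HFD the ranges were 68.6 to 88.3 and 62.8 to 84.2 CPM (0.03 ± 0.09, adjusted p = 0.833). The annotated span of Sphk2 overlaps Dbp and Rpl18 on the opposite strand, and those of Sptlc2, Cers2, Cers6 and Sgms1 also overlap other genes.

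**Figure D3:**
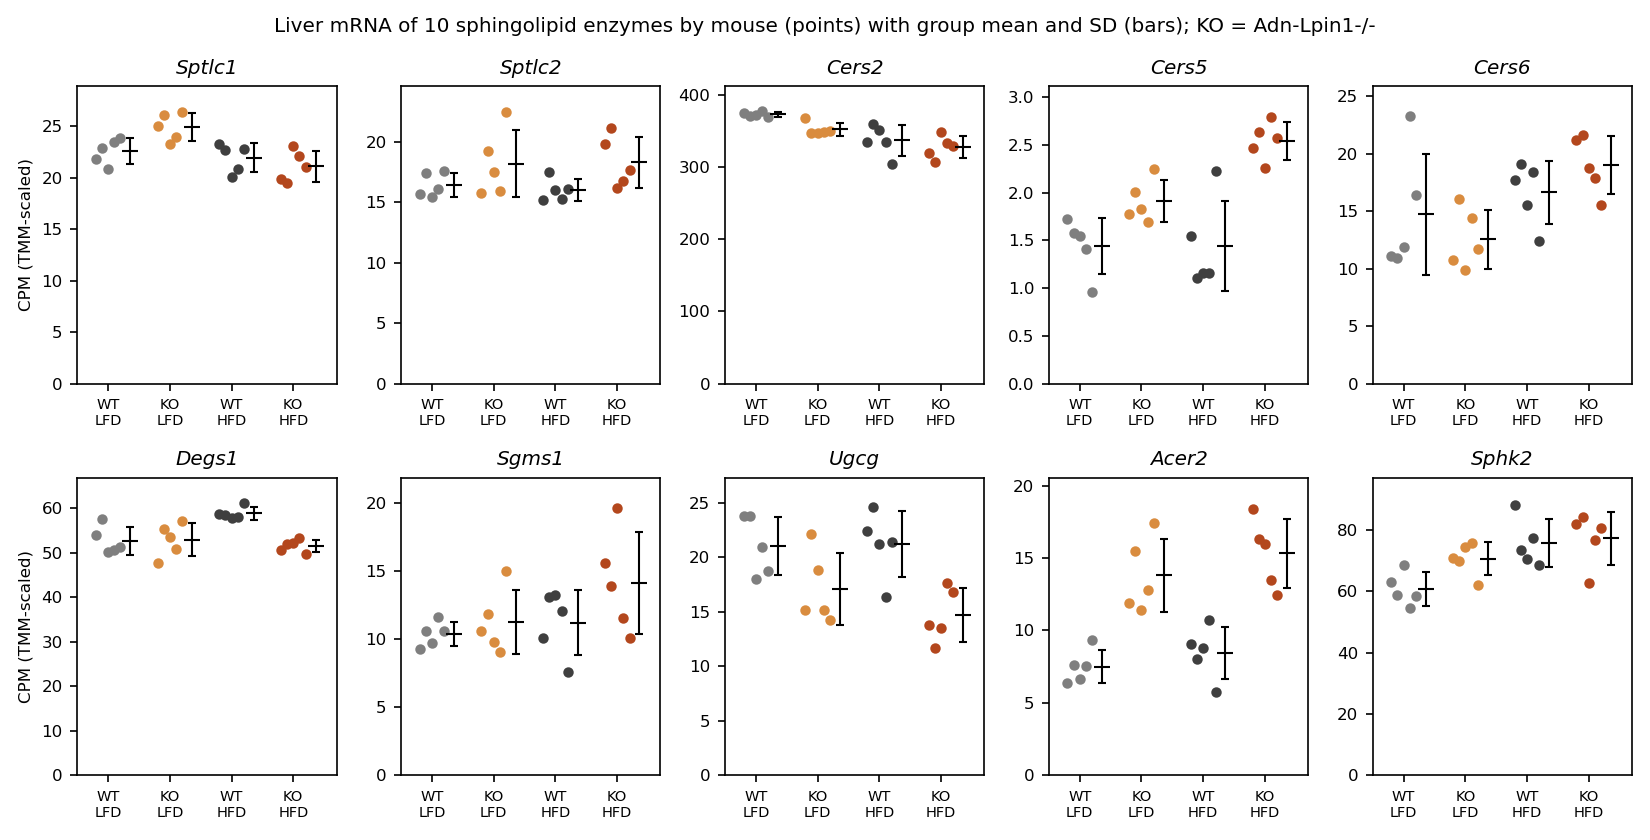
TMM-scaled CPM (vertical axes, from 0) of each member in every mouse (points), with the group mean and SD (bars, n = 5), for WT and Adn-Lpin1-/- (KO) mice on the LFD and the HFD. The Acer2 points of both KO groups lie above both WT groups, the Cers5 points of KO HFD are the highest of that panel, and the Degs1 points of WT HFD lie above the other 3 groups.

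To show what the promoters of 3 of the called enzymes hold, the bases before each RefSeq start site are printed for Acer2, Cers5 and Degs1, 5′ to 3′ on the gene's own strand of GRCm38.p6 and without bases in annotated exons, with matches to the searched motifs in capitals. The Acer2 stretch is chr4:86874164-86874395 on the plus strand, just before the first annotated exon. The Cers5 stretch is chr15:99772602-99772674 on the minus strand and the Degs1 stretch is chr1:182282225-182282445 on the minus strand. Both lie in introns of annotated transcripts that start farther upstream.
Acer2: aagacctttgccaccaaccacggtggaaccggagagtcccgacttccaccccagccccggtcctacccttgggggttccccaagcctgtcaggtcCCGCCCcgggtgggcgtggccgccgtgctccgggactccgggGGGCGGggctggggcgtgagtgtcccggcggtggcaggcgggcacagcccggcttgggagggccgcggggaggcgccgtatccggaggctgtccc
Cers5: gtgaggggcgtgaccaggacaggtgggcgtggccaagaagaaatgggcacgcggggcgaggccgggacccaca
Degs1: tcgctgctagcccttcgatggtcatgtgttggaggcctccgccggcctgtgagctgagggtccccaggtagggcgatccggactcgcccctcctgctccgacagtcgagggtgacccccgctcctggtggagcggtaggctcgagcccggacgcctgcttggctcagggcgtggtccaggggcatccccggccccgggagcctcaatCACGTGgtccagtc
The GC box GGGCGG was found on either strand at 155 and 113 bases before the Acer2 start. The 73 bases of Cers5 hold no match, and the full 250 bases before its start hold GC boxes at 55 and 38 bases. Degs1 has an E-box, CACGTG, 43 bases before its start. That start lies 609 bases from the start of the gene as counted. A stretch of bases just after it was not found in the gene's annotated transcripts, unlike for the other members. Of several RefSeq starts (2 for Cers2, 4 for Sgms1, 2 for Sphk2) the nearest to the counted gene's start was used, and motif positions and counts rest on it. The window of Ugcg lies wholly in an annotated exon and is not printed. Over the 250 bases before the start of each of the 10 members, 8 held a GC box, 4 the CCAAT box CCAAT and 3 an E-box, against 32.7%, 33.8% and 6.02% of 32851 RefSeq promoter windows of that length, counting both strands. The members' windows had 55.2 to 80.4% G and C, above the median of 52.4% of all windows. The other motifs searched had no match in any member: TATAAA (12.4% of all windows), TCACNCCAC (1.05%), GTAAACA (3.17%) and TGACGTCA (1.55%). A match is a run of letters and says nothing of factor binding, and GC boxes stood in 3 of the 4 members called for genotype and in 5 of the other 6.

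Few genes passed the test for diet, these enzymes included. In WT mice 0 of 10 members were called for HFD against LFD by edgeR, where 1.10% of all genes were, while 3 had an unadjusted p under 0.05, and DESeq2 and limma-voom with quality weights called 1 each. Of all 13052 genes edgeR called 144, DESeq2 400 and limma-voom 670. The share of all genes with an unadjusted p under 0.05 is not given here. Sphk2 came closest, rising from 60.8 ± 5.44 to 75.7 ± 7.81 CPM (SD, n = 5; log2 fold change 0.32 ± 0.09, adjusted p = 0.0759). It was the member called by both other tools. Cers2 and Degs1 did not overlap between the diets in WT mice, where 3.73% of all genes did not: Cers2 went from 373.1 to 337.0 CPM (-0.15 ± 0.05, adjusted p = 0.177) and Degs1 from 52.7 to 58.9.

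In Adn-Lpin1-/- mice 1 of 10 members was called for diet, against 2.46% of all genes. Sptlc1 had 25.0, 26.1, 23.3, 23.96 and 26.4 CPM on the LFD and 19.9, 19.5, 23.1, 22.1 and 21.05 on the HFD. Every HFD mouse was below every LFD mouse, and the log2 fold change was -0.24 ± 0.06 (adjusted p = 0.0484). This call stood just inside the threshold and was kept in 12 of 31 alternatives. Cers5 also did not overlap between the diets in these mice (0.41, adjusted p = 0.271), where 4.06% of all genes did not. Cers6 had 21.1, 21.6, 18.8, 17.9 and 15.5 CPM on the HFD, with 4 of these 5 mice above every LFD mouse, and a log2 fold change of 0.60 ± 0.19 (adjusted p = 0.0992).

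When the genotype effect on the HFD was set against that on the LFD, 0 of 10 members and 0.00% of all genes were called by edgeR, and DESeq2 and limma-voom called 0 members. Of all 13052 genes DESeq2 called 30 and limma-voom 0. Unadjusted p was under 0.05 for 2 members, Degs1 (difference -0.20 ± 0.08, exact permutation p = 0.0230) and Sptlc1 (-0.20 ± 0.09, exact permutation p = 0.0266), whose adjusted p were 0.602 and 0.683. A difference between the diets was therefore not shown for any enzyme, including those called on the HFD only.

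The wider sphingolipid list placed these enzymes among 47 further genes that passed the filter. On the LFD 7 of the 47 were called, 1 higher and 6 lower, and on the HFD 8, with 4 higher and 4 lower. The shares of all genes called were 14.4% and 18.6%, and the median log2 fold changes were 0.02 and 0.10. Of the 19 calls made for these genes over the 4 comparisons 11 held in every alternative setting. The genes named as higher or lower next are all those called.

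Cert1 and Samd8 fell on both diets. Cert1, the transfer protein that moves ceramide from the endoplasmic reticulum to the Golgi, was at 33.0 to 42.6 CPM in WT LFD and 25.8 to 29.9 in Adn-Lpin1-/- LFD, and at 31.4 to 37.4 and 21.5 to 26.4 on the HFD. The groups did not overlap on either diet, and the log2 fold changes were -0.46 ± 0.08 (adjusted p = 0.000708) and -0.45 ± 0.08 (adjusted p = 0.000706). Samd8, a relative of the sphingomyelin synthases that makes ceramide phosphoethanolamine, fell by 0.41 and 0.33 on the log2 scale (adjusted p = 0.00581 and 0.0172). With a trend of counts on the GC content of exons removed, the HFD value of Samd8 was -0.21 and was not called (adjusted p = 0.0788). Smpd4, a neutral sphingomyelinase, was higher on the HFD (0.24, adjusted p = 0.0297), a call kept in 22 of 31 alternatives. Of the 9 tested genes of sphingomyelin metabolism, Sgms1 included, 2 were lower on each diet and 1 higher on the HFD, where 8.11% (LFD) and 8.78% (HFD) of all genes were lower and 9.87% higher on the HFD.

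A carrier and 2 receptors of sphingosine 1-phosphate were lower on the LFD, the carrier also on the HFD. Apom, the lipoprotein-bound carrier of this lipid that hepatocytes secrete, had 156.0 to 199.0 CPM in WT LFD and 90.6 to 118.5 in Adn-Lpin1-/- LFD, and 149.4 to 205.0 and 78.8 to 109.8 on the HFD. It did not overlap between the genotypes on either diet, and fell by 0.65 ± 0.11 (adjusted p = 0.000644) and 0.86 ± 0.11 (adjusted p = 4.95e-05) on the log2 scale. The receptor genes S1pr1 and S1pr5 fell on the LFD by 0.82 ± 0.16 (adjusted p = 0.00218) and 0.94 ± 0.18 (adjusted p = 0.00198). On the HFD they were at -0.31 (adjusted p = 0.179) and -0.44 (adjusted p = 0.0858). S1pr1 is known from endothelium, of whose 6 markers 3 were higher in the same mice. Stab2, Clec4g and Kdr were not called there (adjusted p = 0.405, 0.319 and 0.186). The part of endothelial cell content in the S1pr1 value was not tested. Sgpl1, the lyase that ends the pathway, was at -0.05 and 0.20 (adjusted p = 0.778 and 0.121). Of the 14 tested genes of this branch 3 were lower on the LFD (8.11% of all genes) and 1 on the HFD (8.78%).

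**Figure D4:**
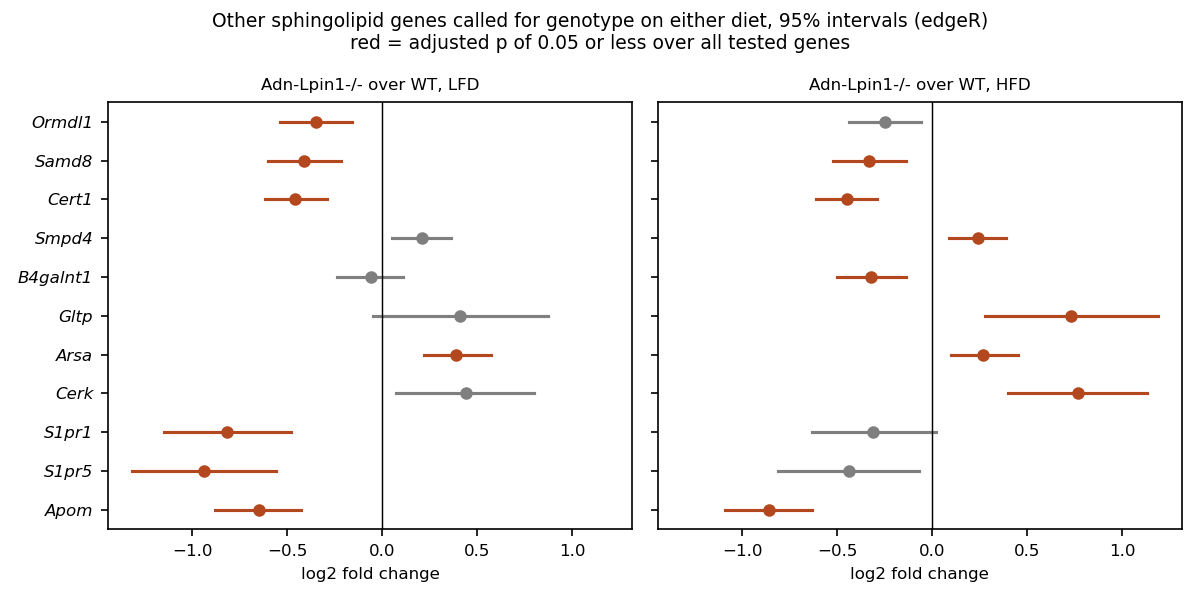
Log2 fold change of Adn-Lpin1-/- over WT (point) with 95% confidence interval (line) on the LFD (left) and the HFD (right) for the 11 other sphingolipid genes called on either diet, in red where called. Apom, Cert1 and Samd8 are red and below 0 on both diets and Arsa red and above 0 on both, and every gene has the same sign in both panels.

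Cerk, which phosphorylates ceramide, was higher on the HFD (0.77 ± 0.17, adjusted p = 0.00578) and at 0.44 on the LFD (adjusted p = 0.101). With Acer2 it made 2 of 5 tested genes of ceramide breakdown and phosphorylation higher on the HFD, as were 9.87% of all genes, while the ceramidases Asah1, Asah2 and Acer3 did not pass on either diet (log2 fold changes -0.30 to 0.22). Among glycosphingolipid genes, Arsa, the lysosomal sulfatase of sulfatide, was higher on both diets (0.39, adjusted p = 0.00405, and 0.27, adjusted p = 0.0292). The HFD call was kept in 21 of 31 alternatives and was lost with the GC trend removed (0.17, adjusted p = 0.180). Gltp, a glycolipid transfer protein, was higher on the HFD (0.73 ± 0.22, adjusted p = 0.0254) and B4galnt1, which extends gangliosides, was lower (-0.32 ± 0.08, adjusted p = 0.0138). Ormdl1, a brake on serine palmitoyltransferase, was lower on the LFD (-0.35 ± 0.09, adjusted p = 0.0162) and at -0.25 on the HFD (adjusted p = 0.0634). With the GC trend removed its LFD value was -0.19 and was not called (adjusted p = 0.126). Its relatives Ormdl2 and Ormdl3 were not called for genotype on either diet. In WT LFD and Adn-Lpin1-/- LFD the means were 14.9 and 11.7 CPM for Ormdl1, 11.9 and 10.6 for Ormdl2, and 110 and 113 for Ormdl3. For diet the called genes were Galc and Gm2a, of lysosomal glycosphingolipid breakdown. Galc fell by 0.56 in WT and 0.56 in Adn-Lpin1-/- mice (adjusted p = 0.0354 and 0.0255), and Gm2a by 0.38 and 0.42 (adjusted p = 0.0354 and 0.0139). The WT calls were kept in 19 (Galc) and 21 (Gm2a) of 31 alternatives, and those in Adn-Lpin1-/- mice in 25 and 31.

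Mice were compared within their groups to see which genes varied together, over 20 mice after the group means were subtracted. Among the 45 pairs of members Pearson's r ranged from -0.56 (Cers2 with Cers5) to 0.73 (Sgms1 with Acer2), with a median of 0.10, so the 10 enzymes did not vary as 1 block. Of all tested genes, those most like Acer2 were Gbe1, the glycogen branching enzyme (r = 0.93), Abcb1a (0.92) and Myo5b (0.92). Those most like Cers5 were Tshz2 (0.81), Gm7429 (0.79) and Pet100 (0.78). Degs1 was most like Robo4 (0.89), Fry (0.80) and Ddah2 (0.75), and the gene most like Ugcg was Cplane1 (0.82). These values are the highest of 13052 and share library depth and base composition, so they are given as a description.

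The dependence of counts on base composition differed between the genotypes. A trend of log2 CPM on the GC content of the exons had slopes of -0.17 to -0.01 per 10 points of GC in the 10 WT mice and 0.03 to 0.16 in the 10 Adn-Lpin1-/- mice, without overlap. With this trend removed, Acer2 was at 0.88 and 0.87 on the LFD and the HFD, Cers5 at 0.83, Ugcg at -0.45 and Degs1 at -0.16 on the HFD, and all of these stayed called (adjusted p up to 0.0473). Of the wider list, the calls of Ormdl1 on the LFD, of Samd8, Arsa and Smpd4 on the HFD and of Galc for diet in WT were lost.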

How the data were processed

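Liver RNA was poly-A selected, copied with random hexamers and sequenced by the authors, and per their processing notes reads were aligned with STAR 2.5.1a to GRCm38 and counted per gene with featureCounts 1.4.6-p5. The deposited tables give, per library, raw counts of uniquely placed, unambiguous reads, and CPM and RPKM columns that the authors computed from the counts; only the counts were used, and CPM and RPKM printed here were recomputed. The 355 rRNA genes were left out, and 13052 of 41388 genes with over 1 CPM in at least 4 libraries were tested.

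Counts of 20 mice were scaled by TMM and fitted in edgeR 4.0.16 (quasi-likelihood, group means as terms, Benjamini-Hochberg over all tested genes, called at 0.05), with R 4.3.3. DESeq2 1.42.0 and limma 3.58.1 (voom, the study's own approach) were alternatives. Single genes were also tested by two-sided exact permutation of log2 CPM (252 arrangements, not adjusted) in Python 3.11.15. The fit was tested on simulated data. The replicates are taken as separate mice from their labels.

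The members and gene lists were chosen with earlier results of these data known. All 10 members are named in each comparison, and of the wider list those called, at most 8 per direction. Promoters came from RefSeq (GRCm38.p6), and gene positions from GENCODE on the files' build. Means are given with the SD, and fold changes with the SE.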

Additional observations from a re-analysis of the deposited data

Results flagged for a closer look

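One value stood apart within its group. Cers2 in Adn-Lpin1-/- LFD mouse 1 was at 367.9 CPM, while the other 4 mice of that group lay between 347.2 and 350.2 CPM, so that the gap to the nearest mouse made up 0.855 of the range of the group, above the critical value of 0.71 for 5 samples. It was 1 of 40 sets of 5 mice examined, where about 1 in 20 passes by chance. This mouse lies nearest to the WT LFD range of 369.0 to 378.1 CPM.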

How the results depend on the processing

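The called values of Acer2 on both diets and of Cers5 and Ugcg on the HFD held in all 31 alternatives (11 settings and 20 omissions of 1 mouse), and Degs1 on the HFD in 30, the exception being the test without a filter on low counts (adjusted p = 0.0579). No called value changed sign. Depth limits Cers5 most (39 to 207 reads per mouse). With an arm of 4 mice after an omission, that arm is assumed to vary like the others.

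With pools as sixth libraries, which are not independent of the mice, 3 members were called for genotype on the LFD, 2 for diet in WT and 2 for diet in Adn-Lpin1-/- mice, and 16, 20, 4 and 9 genes of the 69-gene list (members included, 8, 12, 2 and 3 in the report) for genotype on the LFD and the HFD and for diet in WT and Adn-Lpin1-/- mice. With voom and pools these were 6, 3 and 3 members and 26, 26, 11 and 17 list genes. For diet in WT, 1 member was called by DESeq2, by voom and with the GC trend removed, and for diet in Adn-Lpin1-/- mice DESeq2 called 2 members and 7 list genes. Of all 13052 genes, 144 were called for diet in WT by the edgeR test of the report. DESeq2 called 400, voom 670 and the fit with the GC trend removed 173. For diet in Adn-Lpin1-/- mice edgeR called 321 of all genes and DESeq2 577. Sptlc1, the only member called there, was not called (0 members) with voom, without a filter, with the default filter of edgeR, with the replicate block, with thinned counts or with only the 2 groups compared, where 1 list gene was called. For diet in WT the list count was 0 without a filter and with the replicate block, and 1 with the default filter and with only the 2 groups compared. The numbers of all genes called with pools are not given here, so the member and list counts with pools have no share beside them. The cause of these shifts was not tested.

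With 1 mouse left out in turn, 1 to 1 members were called for genotype on the LFD, 4 to 4 on the HFD, 0 to 1 for diet in WT, 0 to 2 for diet in Adn-Lpin1-/- mice and 0 to 0 for the difference between the diets. The list counts were 8 to 10, 9 to 17, 0 to 3, 1 to 4 and 0 to 0. Sptlc1 lost its diet call without any 1 of the 5 Adn-Lpin1-/- LFD mice, of Adn-Lpin1-/- HFD mice 1, 2 and 5, of WT HFD mice 1, 2 and 4, or of WT LFD mice 1 and 2 (adjusted p up to 0.127). Sphk2 gained a diet call in WT without Adn-Lpin1-/- HFD mouse 3 (adjusted p = 0.0487), and Cers6 in Adn-Lpin1-/- mice without WT LFD mouse 4 (adjusted p = 0.0414). Of the other list genes, the HFD calls of Samd8 (without WT mouse 2), Smpd4 (WT 1, 2, 4 and 5, Adn-Lpin1-/- 2 and 3), Gltp (WT 1 and 3, Adn-Lpin1-/- 1 and 2) and Arsa (WT 2, 3 and 5, Adn-Lpin1-/- 1, 2 and 4) were lost on such omissions, with adjusted p up to 0.05003, 0.0752, 0.0847 and 0.0829. For diet in WT, Galc was lost without any 1 LFD mouse or HFD mice 1 to 4 and Gm2a without LFD mice 2 and 4 or HFD mice 1 to 4 (adjusted p up to 0.0918 and 0.126), and in Adn-Lpin1-/- mice Galc without LFD mice 2 and 3 or HFD mice 3 and 5 (up to 0.0817). With the GC trend removed Ormdl1 on the LFD (-0.19), Samd8 (-0.21), Arsa (0.17) and Smpd4 (0.21) on the HFD and Galc for diet in WT (-0.55) were not called (adjusted p = 0.126, 0.0788, 0.180, 0.0544 and 0.05025). Without a filter Arsa and Smpd4 on the HFD and Galc and Gm2a for diet in WT were not called (0.06997, 0.0914, 0.0655 and 0.0738), nor were Arsa, Smpd4 and Gm2a there with the default filter (0.0522, 0.0614 and 0.0541). With only the 2 groups compared, Gm2a in WT and Galc in Adn-Lpin1-/- mice were not called for diet (0.0721 and 0.103).

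Log2 values that changed sign were all uncalled and small. For Degs1 on the LFD they were -0.00 with the default filter and with thinned counts and -0.02 to 0.04 over the omissions of a mouse. Sgms1 on the LFD was -0.01 with voom and pools and -0.01 to 0.19 over omissions. Sphk2 on the HFD was -0.00 with pools, -0.04 with voom and pools, -0.09 with the GC trend removed and -0.02 to 0.10 over omissions. For diet in WT, Sptlc2 was 0.03 with voom and pools. Cers5 was 0.00 with DESeq2 and the default filter, 0.02 with pools, 0.01 without a filter, 0.10 with thinned counts and -0.21 to 0.08 over omissions. Ugcg was -0.03 with voom, -0.00 with pools, -0.04 with voom and pools, -0.01 with the GC trend removed and -0.05 to 0.09 over omissions. For diet in Adn-Lpin1-/- mice Sptlc2 was -0.02 with pools, -0.03 with voom and pools, -0.00 with the GC trend removed, -0.01 with thinned counts and -0.05 to 0.10 over omissions. For the difference between the diets Sptlc2 was -0.01 with pools, -0.07 with voom and pools and -0.01 to 0.14 over omissions, Acer2 -0.14 to 0.08 and Cers2 -0.00 to 0.07 over omissions.

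Same-numbered mice of different groups did not vary together. Correlations of their deviations from the group means ran from -0.42 to 0.33 over 30 pairs, 8 of them over 0.1, and 2 of 20 mice correlated best with a mouse of their own number. With the replicate block the members' genotype calls were the same 4 on the HFD and 1 on the LFD, Acer2 at 0.88 (adjusted p = 0.00489) and 0.86 (adjusted p = 0.00466), whereas Arsa on the HFD (adjusted p = 0.0509), Galc and Gm2a for diet in WT (0.0742 and 0.0809) and Sptlc1 and Galc for diet in Adn-Lpin1-/- mice (0.0888 and 0.0540) were not called.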

Other observations

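Each group also had 1 library labelled as a pool, which was not used as a replicate. Scaled together with the mice, its value fell between the lowest and highest mouse of its own group in 37 of 40 combinations of member and group. The exceptions were Sptlc2 in WT HFD (17.8 CPM in the pool, 15.2 to 17.6 in the mice), Cers2 in WT LFD (359.7 CPM, 370.4 to 379.8) and Cers5 in Adn-Lpin1-/- HFD (2.22 CPM, 2.27 to 2.79).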
